A study of Mus musculus with 14 samples.

Results

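The measurement described here is the effect of radiation (RT) over both sorted populations of the mouse submandibular gland, a major salivary gland: 8 RNA sequencing libraries after RT against 6 without RT, all 14 of the 14 libraries in the series, with the population kept as an additive term. Adult mice of genotype TertCreERT2/+ Rosa26LSL-tdTomato/+ carried in all groups a Cre recombinase at 1 allele of Tert, the gene of the catalytic subunit of telomerase, with a reporter allele from which Cre makes tdTomato. Living cells (DAPI negative) with EpCAM on their surface were sorted by tdTomato into Tert+ cells (TertHigh in the labels, tdTomato+) and Tert- cells (TertLow, tdTomato-), from glands that had or had not received 15 Gy. There were 3 Tert+ and 3 Tert- libraries without RT and 4 Tert+ and 4 Tert- libraries after RT. The time from RT to sorting, the age in weeks, the sex and the giving of tamoxifen, which this Cre needs, are not in the labels. Whether replicates are different mice, and whether a Tert+ and a Tert- library share a gland, is not stated, so the p-values speak for the spread among these libraries, which may be technical.

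Groups follow the sample titles. A further label field states the opposite population in 14 of 14 libraries, which would exchange the names Tert+ and Tert- but leaves the pooled RT contrast as it is. All 8 RT libraries carry higher library numbers (9 to 16) than the 6 without RT (1 to 8), so RT and whatever these numbers stand for, which the labels do not say, cannot be told apart.

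Ionising radiation breaks DNA. Breaks activate the kinases ATM and ATR and through them the transcription factor p53, whose targets include Cdkn1a, the inhibitor p21 that holds cyclin dependent kinases (CDKs) in check, and genes that favour apoptosis. Cells that stop dividing lose transcripts of replication and mitosis, most of which are controlled by E2F factors and by the DREAM and MuvB complexes. In salivary glands RT is known for lasting loss of secretion, while lymphocytes are among the most radiation sensitive cells of the body and dividing germinal centre B cells, which mutate and switch their antibody genes, are sensitive among them.

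Levels are given as CPM (counts scaled to a common library total), and changes as log2 fold changes of RT over no RT ± SE from edgeR's quasi-likelihood test with Benjamini-Hochberg adjustment over all 15915 genes tested. The threshold was an adjusted p of 0.05, and rose and fell are used only past it. Total counts were 9220126 to 15943597 without RT and 5520412 to 11642156 after RT, with means of 12277300 and 8429580 (exact permutation within population, two-sided, adjusted p = 0.0612, over 9 measures). A comparison in which the Tert+ and Tert- libraries of the same RT state and replicate number were summed, 4 against 3, is called the summed comparison below, since such libraries may share a mouse. It called 378 genes higher and 335 lower.

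Over both populations, 1040 genes were higher after RT (6.53% of those tested) and 1167 were lower (7.33%), 13.9% in either direction. At an unadjusted p under 0.05 there were 4524 genes in either direction. In 501 genes (3.15%) no RT library overlapped any library without RT. The fitted change had the same sign in Tert+ and Tert- for 1040 of the 1040 higher and 1166 of the 1167 lower genes, which the pooling favours. Changes over 2-fold were seen in 440 of the higher and 251 of the lower genes. Of the higher genes 72.8% were protein coding, with a median length of 4974.5 bases, and of the lower genes 96.2%, with 3337 bases, against 79.7% and 3637 bases over all tested. Upper quartile scaling in place of TMM gave 1206 higher and 873 lower, so the higher genes were 58.0% of calls in place of 47.1%. DESeq2 called 1589 higher and 1472 lower, and testing protein coding genes alone gave 945 and 777. Leaving out Tert- no RT replicate 3 gave 661 higher and 665 lower, Tert+ no RT replicate 2 gave 695 and 670, Tert+ no RT replicate 3 gave 709 and 720, and Tert- no RT replicate 2 gave 722 and 761.

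**Figure D1:**
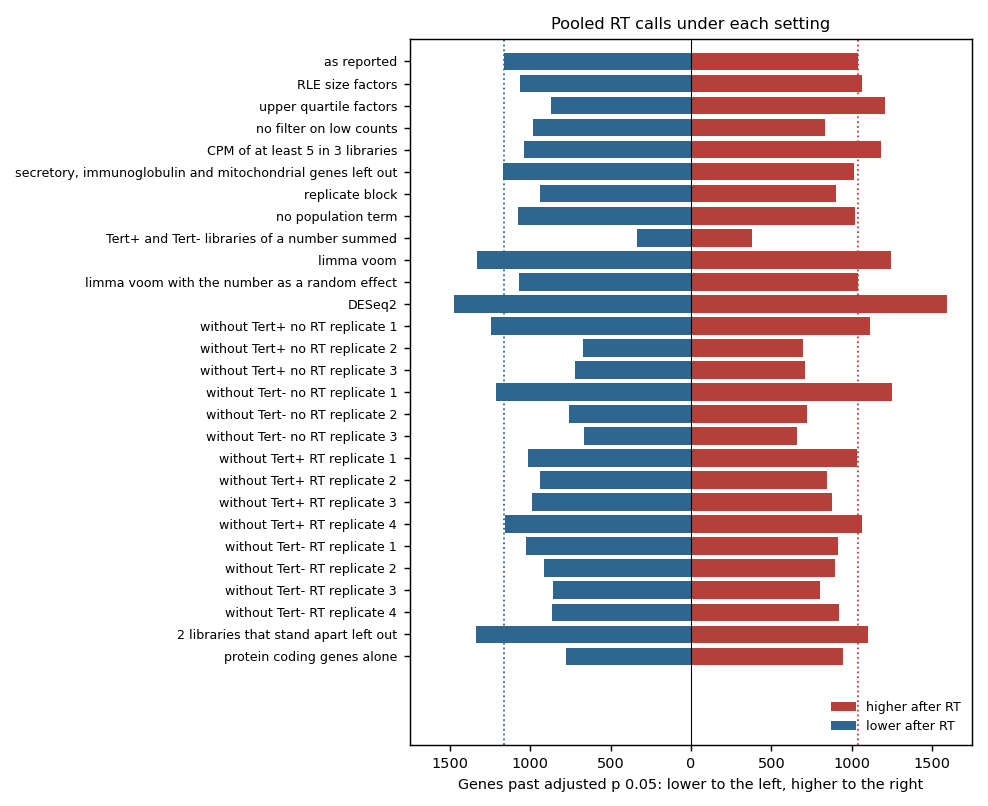
Genes past an adjusted p of 0.05 that were higher (right) or lower (left) after RT under each setting, with dotted lines at the reported counts of 1040 and 1167. The summed comparison has the shortest bars (378 and 335) and DESeq2 the longest (1589 and 1472).

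The sorted cells were checked against the markers of the tissue and of other cells. Epcam, the protein used for the sort, stood at 29.7 to 126 CPM and Krt8, a keratin of glandular epithelium, at 16.7 to 97.1 CPM over the 14 libraries. B cell genes stood far above these: Cd79a, a chain of the B cell receptor complex, at 2134 to 3923 CPM, Ms4a1 (CD20) at 1099 to 2167 CPM and Ptprc (CD45, on leukocytes) at 1195 to 1638 CPM. Of the fibroblast and endothelial markers, Col1a1 was at 8.76 CPM or less, Cdh5 at 2.62 CPM or less, Dcn at 44.5 CPM or less, and Pecam1, which leukocytes also carry, at 160 to 276 CPM. Summed B cell genes made 2.73 to 4.47% of counts without RT and 3.11 to 3.93% after RT (exact permutation, adjusted p = 0.453), and the epithelial list 0.0522 to 0.113% and 0.0430 to 0.103% (adjusted p = 0.898). Cd79a, Ms4a1 and Ptprc thus stood above Epcam and Krt8 in every library, with and without RT, although the sort was for EpCAM. Secretory genes of epithelial cells were abundant too, with acinar genes at 0.388 to 11.1% of counts. The RNA of epithelial cells and of B cells in the tube cannot be separated in these bulk values, and fewer cells of a type cannot be told apart from less RNA per cell.

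Tert itself stood at 0 to 2.45 CPM without RT (1.08 ± 0.899, SD, n = 6) and at 0 to 8.41 CPM after RT (2.10 ± 2.97, n = 8). The change was 0.58 ± 1.52 on the log2 scale (adjusted p = 0.852), and the groups overlapped. Tert checks neither label, since tdTomato, not Tert RNA, defined the sort.

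Of the libraries without RT, 2 stand apart and are named beside the results they touch. Tert+ no RT replicate 1 had 11.1% of its counts in acinar genes, against 0.388 to 3.64% in the other 13 libraries. Tert- no RT replicate 1 had the highest heat shock share without RT, 0.914% against 0.516 to 0.648% in the other 5, and the highest Cdkn1a. Leaving out Tert+ no RT replicate 1 and Tert+ RT replicate 4 together, an alternative chosen after seeing the data, gave 1103 higher and 1337 lower genes.

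Several shares of the library total moved with RT. Mitochondrially encoded genes took 0.418 to 1.22% of counts without RT and 1.13 to 2.86% after RT, overlapping in part (exact permutation, adjusted p = 0.0184). Ribosomal protein genes took 4.02 to 4.91% and 4.91 to 7.15%, meeting at the edge (exact permutation, adjusted p = 0.0184). Noncoding RNA genes took 0.825 to 1.43% and 1.34 to 1.64% (adjusted p = 0.00539 over 11 measures added after seeing the data), and Malat1 with Neat1, 2 RNAs that stay in the nucleus, 0.0279 to 0.0570% and 0.0586 to 0.157%, with no overlap (adjusted p = 0.00449). With means over the Tert+ and Tert- libraries of a number, where the smallest p that 35 regroupings can give is 0.0286, the noncoding and ribosomal shares reached 0.0286 and the mitochondrial and Malat1 shares 0.0571. These measures also vary with RNA quality and with the share of nuclear RNA, and their part in the gene results was not tested.

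**Figure D2:**
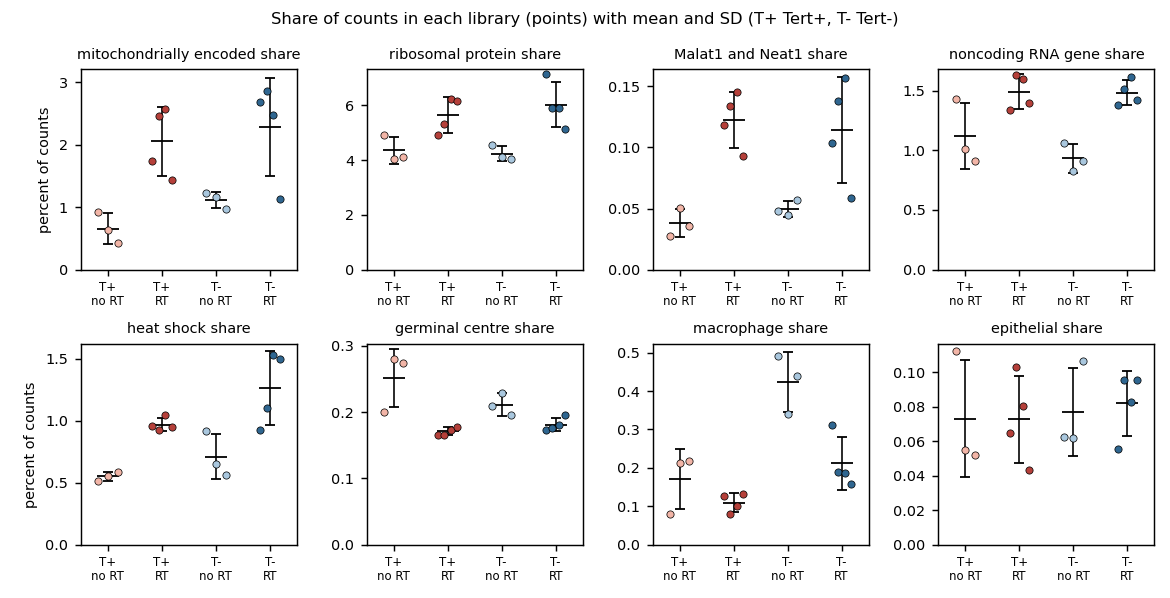
Percent of each library's counts in 8 gene groups, 1 point per library, with the mean and SD of each group of 3 or 4. In both populations the mean Malat1 and Neat1, ribosomal protein, heat shock and mitochondrial shares sit higher after RT, and the mean germinal centre share lower. Single libraries overlap within a population in the ribosomal protein, mitochondrial and germinal centre shares. The epithelial share overlaps throughout.

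Counts of members past the threshold are given below for 35 gene lists beside the shares over all genes tested, 6.53% higher and 7.33% lower. Of 130 named genes past the threshold, 107 kept it whichever of the 14 libraries was left out, and 90 passed in the summed comparison.

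**Figure D3:**
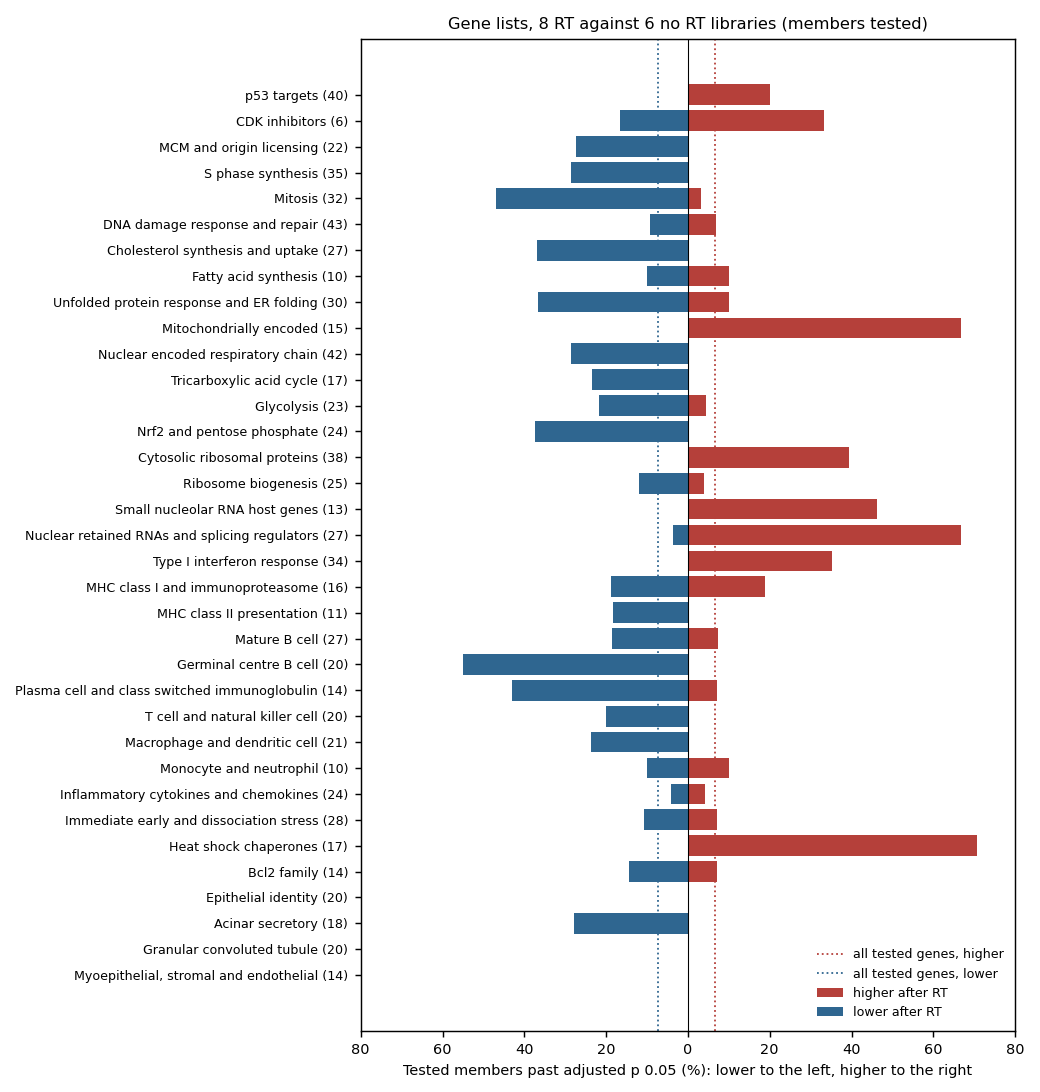
For each of 35 gene lists, the percent of its tested members (number in brackets) that were higher (right) or lower (left) after RT at an adjusted p of 0.05, with dotted lines at 6.53 and 7.33% for all genes. Heat shock chaperones (70.6%), mitochondrially encoded genes (66.7%) and splicing regulators (66.7%) reach farthest to the right, and germinal centre B cell genes (55.0%) and mitosis genes (46.9%) farthest to the left.

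Targets of p53 were higher in part. Of 40 tested targets, 8 rose (20%) and 0 fell, with a median log2 fold change of 0.26 against -0.02 over all genes. The summed comparison called 4. Phlda3, which restrains Akt signalling, stood at 0.735 to 4.02 CPM (median 2.06) without RT and at 9.75 to 26.2 CPM (median 16) after RT. No library overlapped, and the change was 2.83 ± 0.42 (adjusted p = 0.000749). Ccng1, the cyclin G that feeds back on p53, stood at 86.7 to 109 CPM and 130 to 180 CPM, without overlap, and rose by 0.71 ± 0.09 (adjusted p = 0.000329). The other risers were Sesn1, a stress regulator of mTORC1 (0.77 ± 0.13, adjusted p = 0.00135), Mdm4, which binds and inhibits p53 (1.18 ± 0.19), Tnfrsf10b, a death receptor (1.48 ± 0.34), Plk2 (0.82 ± 0.22), Cdkn1a and Bbc3. Bbc3, which encodes the apoptosis protein Puma, is called with less certainty: its adjusted p of 0.0388 lay between 0.0550 and 0.0943 without any 1 of Tert+ no RT replicates 2 and 3, Tert- no RT replicates 2 and 3, Tert+ RT replicate 4 and Tert- RT replicates 1, 3 and 4. Mdm2, the ubiquitin ligase of p53, stood at 67.0 to 124 CPM and 90.4 to 110 CPM (0.26 ± 0.13, adjusted p = 0.189).

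Cdkn1a, the p21 gene, was higher after RT than in 5 of the 6 libraries without RT. Tert+ libraries without RT held 12.1, 18 and 12.8 CPM and Tert- libraries 105, 17.0 and 20.3 CPM. After RT, Tert+ libraries held 56.5, 65.5, 72.3 and 54.0 CPM and Tert- libraries 73.4, 76.3, 94.8 and 91.6 CPM. Every RT library lay above 5 of the 6 libraries without RT, and Tert- no RT replicate 1 lay above all 8. The change was 1.43 ± 0.37 (adjusted p = 0.0173), 2.15 (adjusted p = 1.70e-06) without that library, and had an adjusted p of 0.200 in the summed comparison. Cdkn1b, the CDK inhibitor p27 that rises in resting cells, had no such exception. It stood at 9.28, 14.2 and 12.2 CPM in Tert+ and 12.4, 15.3 and 17.3 CPM in Tert- libraries without RT. After RT it stood at 39.3, 23.9, 39.6 and 26.5 CPM in Tert+ and 55.9, 47.2, 50.7 and 46.7 CPM in Tert-. The groups did not overlap, and the change was 1.59 ± 0.18 (adjusted p = 0.000134). Cdkn2c, the inhibitor p18, fell (-1.21, adjusted p = 0.0191), with 0.0535 to 0.0553 without Tert+ no RT replicate 2 or 3 or Tert- no RT replicate 3 and 0.0523 in the summed comparison.

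**Figure D4:**
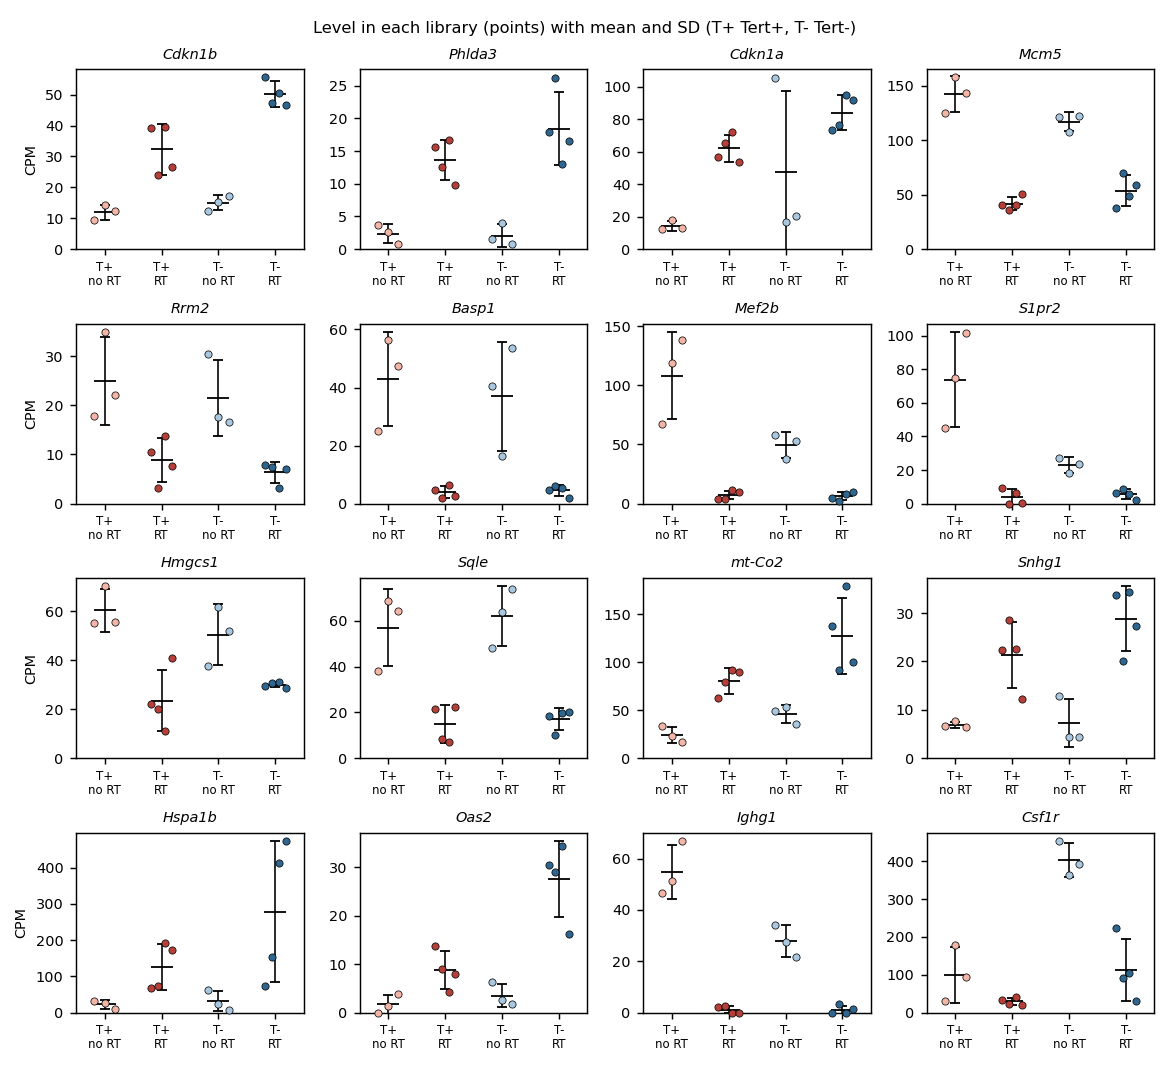
CPM of 16 genes in each of the 14 libraries (points) with mean and SD per group, each panel with its own axis from 0. Mef2b and Basp1 lie lower, and Cdkn1b and Phlda3 higher, in every RT library, and the single Cdkn1a library at 105 CPM without RT stands above all others.

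Genes of DNA replication fell. Of 22 tested genes of the MCM helicase and origin licensing, 6 fell (27.3%) and 0 rose (median -0.42), and of 35 genes of S phase synthesis 10 fell (28.6%) and 0 rose (median -0.63). The summed comparison called 4 and 5. The MCM proteins form the helicase that opens DNA at replication origins. Mcm5 stood at 107 to 159 CPM (median 124) without RT and 35.9 to 70.2 CPM (median 44.5) after RT, without overlap, and fell by 1.45 on the log2 scale (SE 0.15, adjusted p = 9.79e-05). Mcm6 stood at 104 to 171 CPM and 30.1 to 68.1 CPM, again without overlap (-1.41 ± 0.18, adjusted p = 0.000312). Mcm2 (-0.92 ± 0.17), Mcm3 (-0.93) and Mcm4 (-0.43) fell less, and Mcm10 had 300 counts without RT and 6 after RT (adjusted p = 0.0146, 0.0509 in the summed comparison).

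Known control motifs of such genes were looked for in promoters, and their part in the changes was not tested. The promoters shown, of Mcm5, Mcm6, Ccnb2 and Hmgcs1, all hold a match, which most genes of their lists past the threshold do not. Each is the 250 bases before the RefSeq start (GRCm38.p6), 5′ to 3′ on the gene's strand, with matches to a motif in capitals. In Mcm5 and Mcm6 the capitals mark the E2F motifs TTTGGCGC or TTTCGCGC on either strand, which share bases where the capitals run past the motif's length, in Ccnb2 the cell cycle homology motif TTTGAA, and in Hmgcs1, a gene of cholesterol synthesis described further on, the sterol motif TCACNCCAC.
Mcm5, chr8:75109259-75109508, plus strand: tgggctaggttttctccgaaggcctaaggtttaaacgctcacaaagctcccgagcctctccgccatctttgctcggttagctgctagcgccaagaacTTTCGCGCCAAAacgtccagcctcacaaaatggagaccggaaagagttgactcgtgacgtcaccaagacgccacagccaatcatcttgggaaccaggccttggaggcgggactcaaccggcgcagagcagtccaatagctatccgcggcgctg
Mcm6, chr1:128359706-128359955, minus strand: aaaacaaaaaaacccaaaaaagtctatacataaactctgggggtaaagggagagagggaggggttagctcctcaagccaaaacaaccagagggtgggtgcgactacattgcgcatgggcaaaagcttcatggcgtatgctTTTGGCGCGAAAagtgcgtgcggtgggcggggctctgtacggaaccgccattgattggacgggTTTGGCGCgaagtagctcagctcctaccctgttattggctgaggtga
Ccnb2, chr9:70421555-70421804, minus strand: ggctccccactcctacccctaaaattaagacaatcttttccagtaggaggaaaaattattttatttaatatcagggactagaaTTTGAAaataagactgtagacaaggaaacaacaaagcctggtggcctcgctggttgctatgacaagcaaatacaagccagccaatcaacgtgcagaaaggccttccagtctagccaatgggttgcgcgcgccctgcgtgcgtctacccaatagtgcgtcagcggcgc
Hmgcs1, chr13:119690101-119690350, plus strand: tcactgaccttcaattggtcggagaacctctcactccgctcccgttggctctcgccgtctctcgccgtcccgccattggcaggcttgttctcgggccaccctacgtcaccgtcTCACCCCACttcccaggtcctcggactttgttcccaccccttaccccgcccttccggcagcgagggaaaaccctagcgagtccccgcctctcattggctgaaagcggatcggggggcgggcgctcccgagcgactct

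Over 10619 tested genes with such a window, 1.44% held the E2F motif, 13.3% the cell cycle homology motif and 40% the letters CCAAT on either strand. Of 17 MCM and licensing genes with a window 17.6% held the E2F motif and 76.5% CCAAT, and of 30 S phase genes 13.3% and 53.3%. Of 26 mitosis genes 38.5% held the cell cycle homology motif and 84.6% CCAAT. Among members past the threshold, the E2F motif was in 2 of 5 licensing genes, Mcm5 and Mcm6, and in 1 of 10 S phase genes, Dnmt1. The cell cycle homology motif was in 6 of 13 mitosis genes past the threshold. Over the 903 lower genes with a window the E2F motif was in 1.66% and the cell cycle homology motif in 12.5%, near the shares of all genes. These matches describe letters in the window and are not measured sites.

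Among the S phase genes, Rrm2, a subunit of the ribonucleotide reductase that makes DNA building blocks, stood at 16.6 to 35.0 CPM without RT and 3.17 to 13.8 CPM after RT. The groups did not overlap, and it fell by 1.63 on the log2 scale (SE 0.31, adjusted p = 0.00333). Rpa1, which coats single stranded DNA, stood at 227 to 338 CPM and 113 to 197 CPM (-0.89 ± 0.12, adjusted p = 0.000362). Rrm1 (-0.83 ± 0.15, 0.0512 in the summed comparison), Dnmt1, which copies DNA methylation (-0.72 ± 0.14), Lig1 (-1.72 ± 0.40), Rfc5, Pold1, Pola2, Dut and the factor E2f1 (-0.83) also fell. Asf1b, a chaperone that hands histones to new DNA, stood at 24.7 to 53.8 CPM and 6.63 to 16.6 CPM (-1.70 ± 0.24, adjusted p = 0.000625).

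Mitosis genes fell by large factors. Of 32 tested, 15 fell (46.9%) and 1 rose, with a median log2 fold change of -1.97. Without Tert+ no RT replicate 2, 9 fell, and the summed comparison called 13. Levels were low before RT, so these are few reads: Mki67, which encodes the proliferation marker Ki-67, stood at 11.2, 9.99 and 8.65 CPM in Tert+ and 32.0, 5.42 and 1.05 CPM in Tert- without RT. After RT it stood at 0 to 3.96 CPM (-4.07 ± 1.00, adjusted p = 0.0136). Kif2c, a kinesin that takes microtubules apart, had 366 counts over the 6 libraries and 0 over the 8, at least 117-fold lower by a floor of 3 counts over the RT group (adjusted p = 0.00111). Bub1, a kinase of the spindle checkpoint, had 184 counts and 0, at least 59.1-fold lower (adjusted p = 0.0210). Cdkn3, a phosphatase of CDKs, had 279 counts and 1, a ratio whose 95% counting interval ran from 47.8 to 10648 (adjusted p = 0.000749). Ccnb2, a cyclin of mitotic entry, fell from 6.61 to 31.7 CPM to 0 to 6.79 CPM (-3.49 ± 0.71, adjusted p = 0.00463). Ccna2, Ccnb1, Birc5, Aurkb, Cdca8, Hmmr, Racgap1, Cdc20, Stmn1 and Top2a were the others. The exception was Cenpa, the histone variant of the centromere, which stood at 40 to 106 CPM without RT and 113 to 188 CPM after RT and rose without overlap (1.09 ± 0.18, adjusted p = 0.00139).

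The DNA damage response and repair list as a whole lay near the background. Of 43 tested genes 3 rose (6.98%) and 4 fell (9.30%), with a median of -0.04. H2afx, the histone whose phosphorylated form marks breaks, stood at 59.9 to 113 CPM and 31.1 to 51.9 CPM without overlap (-1.05 ± 0.15, adjusted p = 0.000707). Xrcc6 (Ku70), which binds broken ends, fell without overlap (-0.80 ± 0.15, adjusted p = 0.00305), as did Chek1, the checkpoint kinase of replication stress, at low counts (-2.59 ± 0.80, adjusted p = 0.0408). Prkdc, the kinase that joins ends together with Ku, rose (0.66), as did Nbn, part of the break sensing MRN complex (0.71 ± 0.16, 0.0528 in the summed comparison) and Dclre1c, the nuclease Artemis (0.91 ± 0.23, 0.0843 in the summed comparison).

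Genes of cholesterol synthesis and uptake fell. Of 27 tested, 10 fell (37.0%) and 0 rose, with a median of -0.56, and the summed comparison called 6. These genes are known targets of the sterol sensor SREBP2. Sqle, the squalene epoxidase, stood at 37.9, 68.7 and 64.4 CPM in Tert+ and 47.9, 64.0 and 74.0 CPM in Tert- without RT. In the RT libraries it stood at 21.4, 8.24, 7.23 and 22.3 CPM in Tert+ and 18.3, 9.86, 19.8 and 20.1 CPM in Tert-. All 8 lay below all 6, and the change was -1.90 ± 0.27 (adjusted p = 0.000547). Cyp51 (-1.32 ± 0.22), Fdft1 (-1.10 ± 0.17) and Hmgcs1 (-1.06 ± 0.23), enzymes of the same pathway, fell, with Idi1, Msmo1, Nsdhl, Dhcr7 and Ebp. Tmem97, a sterol regulated membrane protein, fell by 1.59 (adjusted p = 0.0218), with 0.0535 and 0.0628 when Tert+ no RT replicate 3 or Tert- no RT replicate 2 was left out and 0.0724 in the summed comparison. Of 20 genes of the list with a promoter window 90.0% held CCAAT and 5% the sterol motif (1.24% of all genes), the Hmgcs1 promoter printed above. In fatty acid synthesis, of 10 genes the desaturase Scd1 rose (0.51 ± 0.11, adjusted p = 0.00546) and Acly, which makes cytosolic acetyl-CoA, fell (-0.45 ± 0.11, adjusted p = 0.0157, 0.0934 in the summed comparison).

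Genes of folding and stress in the endoplasmic reticulum (ER) fell more often than they rose. Of 30 genes of the unfolded protein response and ER folding, 11 fell (36.7%) and 3 rose (10%), with a median of -0.32. Without Tert- no RT replicate 3, 7 fell, and with upper quartile scaling 7. The summed comparison called 6 lower and 1 higher. Sdf2l1, part of an ER chaperone complex, stood at 66.6 to 107 CPM and 26.6 to 50.9 CPM without overlap (-1.14 ± 0.16, adjusted p = 0.000521). Pdia6, a disulfide isomerase (-0.81 ± 0.11), and Dnajb11, a co-chaperone of BiP (-0.66 ± 0.11), also fell without overlap. Xbp1, the transcription factor of the ER and of plasma cells, stood at 170 to 274 CPM and 87.0 to 167 CPM (-0.73 ± 0.13, adjusted p = 0.00236). Hspa5, which encodes BiP, had 1314 to 1696 CPM before and 875 to 1504 CPM after RT (-0.34 ± 0.11, adjusted p = 0.0588). Those that rose were Eif2ak3, the ER stress kinase PERK, at 66.9 to 140 CPM and 139 to 279 CPM (1.07 ± 0.17, adjusted p = 0.00127), Atf4, the factor translated under PERK (0.65 ± 0.16), and Dnajb9 (0.39).

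Genes of the mitochondrial genome rose, and genes of respiration in the nucleus fell. Of 15 mitochondrially encoded genes 10 rose (66.7%) and 0 fell, with a median of 1.31, and the summed comparison called 9. In the nucleus, 12 of 42 respiratory chain genes fell (28.6%) and 0 rose (median -0.24). mt-Co2, subunit 2 of cytochrome oxidase, stood at 33.0, 23 and 16.8 CPM in Tert+ and 49.5, 53.1 and 35.4 CPM in Tert- without RT. After RT it stood at 62.4, 79.2, 92.0 and 89.8 CPM in Tert+ and 138, 92.2, 179 and 100 CPM in Tert-, all above the highest without RT (1.60 ± 0.19, adjusted p = 0.000238). mt-Co3 (1.49 ± 0.22, adjusted p = 0.000707) and mt-Nd4, of complex I (1.46 ± 0.25, adjusted p = 0.00201), also rose without overlap. The nuclear genome holds copies of mitochondrial genes, and how shared reads were counted is not given, so these values are less certain. The nuclear calls were small and depended on single libraries: 7 genes fell without any 1 of Tert+ no RT replicates 2 and 3, Tert- no RT replicates 2 and 3 and Tert- RT replicates 3 and 4, 7 with upper quartile scaling, and 3 in the summed comparison. Uqcrc1, a core subunit of complex III, was the leading one (409 to 685 CPM and 257 to 439 CPM, -0.78 ± 0.12, adjusted p = 0.000877), followed by Atp5a1, of ATP synthase (-0.48 ± 0.08), and Cox6a1 (-0.63 ± 0.11).

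Other enzymes of central metabolism shifted down by small amounts. Of 23 glycolysis genes 5 fell (21.7%) and 1 rose, and of 24 genes of the Nrf2 response and the pentose phosphate pathway 9 fell (37.5%) and 0 rose (medians -0.24 and -0.35). The summed comparison called 3 and 5 lower. Pkm, pyruvate kinase, stood at 628 to 850 CPM and 453 to 614 CPM without overlap (-0.53 ± 0.09, adjusted p = 0.00113). Eno1b, a close copy of the enolase gene Eno1 whose reads may be shared with it, stood at 190 to 341 CPM and 93.2 to 124 CPM (-1.35 ± 0.12, adjusted p = 1.04e-05). The riser was Gapdh, listed at only 1.57 to 7.44 CPM and 8.89 to 35.8 CPM (1.89 ± 0.38, adjusted p = 0.00449), a level that shared reads with its many pseudogenes can set, so it is uncertain. In the pentose phosphate pathway Tkt (-0.67 ± 0.11, adjusted p = 0.00111) and Taldo1 (-0.60 ± 0.10, adjusted p = 0.00147) fell without overlap, as did the antioxidant genes Sod2 (-0.55 ± 0.11) and Txn1 (-0.51 ± 0.10). In the tricarboxylic acid cycle 4 of 17 genes fell, but 0 to 2 did when any 1 library other than Tert+ no RT replicate 1 or Tert- no RT replicate 1 was left out, and 0 in the summed comparison.

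Genes of ribosomes, small nucleolar RNA (snoRNA) hosts and splicing rose. Of 38 ribosomal protein genes 15 rose (39.5%) and 0 fell, and all 38 had a fitted change above 0 (median 0.33). With Tert+ no RT replicate 1 left out 27 rose, and 7 to 9 rose without any 1 of Tert+ no RT replicates 2 and 3, Tert- no RT replicates 2 and 3, Tert+ RT replicate 3 and Tert- RT replicate 1. With libraries summed, 6 passed, and 1 of the 15 had a fold of at least 1.5 as well. Rps19 stood at 1756 to 2130.2 CPM and 2161 to 3747 CPM without overlap (0.54 ± 0.11, adjusted p = 0.00478). Ribosomal protein genes have many pseudogene copies, so their counts are less certain. Of 13 snoRNA host genes, noncoding RNAs whose introns release snoRNAs many of which carry the terminal pyrimidine motif of ribosomal protein mRNAs, 6 rose (46.2%) and 0 fell, with a median of 0.99. With libraries summed, 3 passed. Zfas1 stood at 16.1 to 32.3 CPM and 49.3 to 59.2 CPM without overlap (1.27 ± 0.15, adjusted p = 0.000169), Snhg15 at 9.97 to 35.5 CPM and 38.6 to 83.1 CPM without overlap (1.86 ± 0.25, adjusted p = 0.000449), and Snhg1 at 4.41 to 12.9 CPM and 12.1 to 34.4 CPM (1.80 ± 0.29, adjusted p = 0.00111). Ribosome biogenesis factors did not move with them: of 25, Gnl3 rose and Dkc1, Srm and Nhp2 fell, and 0 of these passed in the summed comparison.

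Of 27 nuclear retained RNAs and splicing regulators 18 rose (66.7%) and 1, Srsf6, fell (adjusted p = 0.0389), with a median of 0.58, and the summed comparison called 9. Srsf6 did not pass there, nor without any 1 of Tert+ no RT replicate 3, Tert- no RT replicates 2 and 3, Tert+ RT replicates 3 and 4 and Tert- RT replicates 2, 3 and 4. Malat1 stood at 286 to 559 CPM and 432 to 1371 CPM (1.32 ± 0.22, adjusted p = 0.00147), and 7 of the 8 RT libraries lay above all 6. Tra2b, an activator of splicing, stood at 251 to 310 CPM and 319 to 490 CPM without overlap (0.58 ± 0.09, adjusted p = 0.00111). Rbm39 (0.70 ± 0.11), Luc7l3 (0.96 ± 0.16), Tra2a (1.10 ± 0.18), Clk1, a kinase of splicing factors (1.19), and Luc7l2 (1.14) rose too. Mdn1, a giant ATPase of ribosome assembly outside these lists, stood at 14.9 to 52.6 CPM and 53.5 to 115 CPM without overlap (1.48 ± 0.22, adjusted p = 0.000677). Malat1 and Neat1 are members of this list, so the Malat1 share above is no separate support for its rise. The relation of the other members to the noncoding share, and the part of RNA quality, were not tested.

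Type I interferon response genes rose. Of 34 tested, 12 rose (35.3%) and 0 fell, 29 had a fitted change above 0, and the median was 0.72. With libraries summed, 7 passed. Interferon stimulated genes are induced through the factor ISGF3, which binds the interferon stimulated response element. Oas2, a sensor of double stranded RNA, stood at 0, 1.33 and 3.87 CPM in Tert+ and 6.26, 2.53 and 1.68 CPM in Tert- without RT. In the RT libraries it stood at 13.8, 9.05, 4.23 and 7.87 CPM in Tert+ and 30.5, 28.9, 34.4 and 16.3 CPM in Tert- (2.63 ± 0.57, adjusted p = 0.00665). Within each population all RT libraries lay above all without RT, and across populations they overlapped. The antiviral GTPases Mx1 (0.443 to 5.52 CPM and 4.90 to 22.0 CPM, 2.49 ± 0.56) and Mx2 (0 to 5.25 CPM and 3.68 to 21.7 CPM, 3.03 ± 0.68) rose by similar amounts from low levels. Irf7, the factor that amplifies interferon, stood at 50.2 to 99.5 CPM and 79.8 to 227 CPM (1.07 ± 0.23, adjusted p = 0.00699). Xaf1 (1.04 ± 0.17, adjusted p = 0.00116) and the nucleic acid sensor Zbp1 (1.03 ± 0.20, adjusted p = 0.00333) rose without overlap. Isg15, a ubiquitin-like protein and a usual marker of this response, did not pass, at 3.49 to 8.50 CPM and 2.67 to 10.3 CPM (-0.12 ± 0.39, adjusted p = 0.889). The response element was in 52.0% of the 25 promoter windows of the list against 3.47% of all genes, but among the 6 members past the threshold with a window only in 1, Trim30a (0.82 ± 0.15, adjusted p = 0.00223).

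Antigen presentation on MHC class I split. Of 16 genes 3 rose and 3 fell (18.8% each), and 0 passed in the summed comparison. H2-Q4 (1.36), H2-Q6 (0.75 ± 0.15, adjusted p = 0.00431), which are close copies of each other, and Nlrc5, the factor that drives class I genes (0.83), rose. Psmb8 (-0.76 ± 0.16) and Psmb10 (-0.66 ± 0.14), subunits of the immunoproteasome, and Tapbp, which loads peptides (-0.53 ± 0.11), fell. Of 11 MHC class II genes 2 fell, H2-DMa and Ctss, and 0 rose. There were 4 lower with Tert+ no RT replicate 1 left out, 0 without any 1 of Tert+ no RT replicates 2 and 3 and Tert- no RT replicates 2 and 3, and 1 without any 1 of Tert- RT replicates 2, 3 and 4.

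Genes of germinal centre B cells had the largest share of lower members among the 35 lists. Of 20 tested, 11 fell (55.0%), 0 rose, and 0 had a fitted change above 0. The median was -2.0, and 9 of the 20 genes did not overlap between the 8 and the 6 libraries, against 3.15% of all genes tested. The count of lower genes stayed between 10 and 12 when any 1 library was left out. With libraries summed, 9 passed. Nuggc, a GTPase of germinal centre B cells, had 1157 counts and 1 count, a ratio whose 95% counting interval ran from 199.5 to 44037 (adjusted p = 9.01e-06). Counting intervals and floors cover the error of counting alone: no molecular identifiers were counted, so reads of 1 molecule can repeat. Mef2b, a factor that drives Bcl6 there, stood at 67.6, 119 and 138 CPM in Tert+ and 58.2, 37.6 and 53 CPM in Tert- without RT and at 2.21 to 11.5 CPM after RT (-3.45 ± 0.34, adjusted p = 3.84e-05). S1pr2, the receptor that keeps cells in the germinal centre, stood at 18 to 101 CPM and 0 to 9.41 CPM without overlap (-3.16 ± 0.74, adjusted p = 0.0118). Basp1 (-3.24 ± 0.35), Rgs13 (-4.48 ± 0.57) and Gcsam (-5.22) fell likewise. Bcl6, the master repressor of this stage, which resting B cells also express, went from 127 to 273 CPM to 83.1 to 109 CPM (-0.98 ± 0.14, adjusted p = 0.000547). The summed share of the germinal centre list was 0.19501 to 0.280% of counts without RT and 0.166 to 0.19539% after RT (exact permutation, adjusted p = 0.00449). Tert- RT replicate 4 thus lay just above Tert- no RT replicate 3. This share was added after seeing the data and sums the genes of the list, so it is no separate support. The fall of mitosis and replication genes ran beside this fall, and germinal centre B cells are known as dividing cells. The part of either in the other was not tested.

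Transcripts of the IgG constant region genes Ighg1 and Ighg2c fell too. Of 14 genes of plasma cells and class switched immunoglobulin 6 fell (42.9%) and 1 rose, with a median of -0.62, and the summed comparison called 4 lower. Ighg1, the constant region of IgG1, stood at 46.7, 51.3 and 66.7 CPM in Tert+ and 34.3, 27.4 and 21.7 CPM in Tert- without RT. After RT it was at 0 in 4 of the 8 libraries and at 3.24 CPM or less in the others (-5.07 ± 0.73, adjusted p = 0.000677). Ighg2c fell alike, from 3.15 to 42.2 CPM to 0 to 1.32 CPM (-5.39 ± 0.88, adjusted p = 0.00127). Jchain, which joins IgA and IgM, went from 20.4 to 93.7 CPM to 0 to 31.1 CPM (-4.34 ± 0.95, adjusted p = 0.0108, 0.178 in the summed comparison). Igha, the constant region of IgA, did not pass, at 3.78 to 23.4 CPM and 3.26 to 23.8 CPM (-0.51 ± 0.36, adjusted p = 0.382). Irf4, which plasma cells need, rose (0.75 ± 0.22, adjusted p = 0.0297), a call lost without any 1 of Tert+ no RT replicates 2 and 3, Tert- no RT replicate 3, Tert+ RT replicates 2 and 3 and Tert- RT replicate 3 and in the summed comparison.

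Mature B cell genes changed less. Of 27 tested, 5 fell (18.5%) and 2 rose (7.41%), with a median of -0.16. The 5 were 8 without Tert+ no RT replicate 1 or Tert- no RT replicate 1 and 3 without any 1 of Tert+ no RT replicates 2 and 3, Tert- no RT replicates 2 and 3, Tert+ RT replicate 2 and Tert- RT replicates 2, 3 and 4. Spib, a factor of B cell receptor signalling, stood at 221 to 481 CPM and 143 to 288 CPM (-1.05 ± 0.16, adjusted p = 0.00106), and Vpreb3 fell by 0.86 on the log2 scale (SE 0.14, adjusted p = 0.00111). Ighm, the IgM constant region, stood at 5042 to 8858 CPM and 4415 to 6169 CPM (-0.39 ± 0.11, adjusted p = 0.0298). Ebf1, a factor of B cell identity, rose without overlap, from 347 to 457 CPM to 512 to 645 CPM (0.52 ± 0.09, adjusted p = 0.00182). Btk, a kinase of the receptor, rose with an overlap only of Tert- no RT replicate 1 at 173 CPM and Tert+ RT replicate 4 at 161 CPM (0.64 ± 0.11, adjusted p = 0.00159).

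The pooled medians of other leukocyte lists also lay below 0. Of 20 T and natural killer cell genes 4 fell (20%, median -1.20), and of 21 macrophage and dendritic cell genes 5 fell (23.8%, median -0.91). In the T and natural killer cell list Nkg7 (-1.67 ± 0.34, adjusted p = 0.00469, 0.0513 in the summed comparison) and Lck (-0.91 ± 0.20, adjusted p = 0.00847, 0.0816 in the summed comparison) kept their calls without any 1 library. Leaving out any 1 of the following libraries left 2 lower genes: Tert+ no RT replicates 1 and 2, Tert- no RT replicates 1, 2 and 3, Tert+ RT replicate 2 and Tert- RT replicates 2, 3 and 4. In the summed comparison 0 passed. Csf1r, the growth factor receptor of macrophages, stood at 29.2, 177 and 92.8 CPM in Tert+ and 454, 364 and 392 CPM in Tert- without RT. In the RT libraries it stood at 33.8, 22.6, 40.1 and 21.0 CPM in Tert+ and 224, 90.4, 103 and 31.5 CPM in Tert- (-1.81 ± 0.39, adjusted p = 0.00811). Within Tert- the groups did not overlap, and within Tert+ replicate 1 without RT lay among the RT libraries. Lyz2, lysozyme of myeloid cells (-1.74 ± 0.33, adjusted p = 0.00381), and Flt3, of dendritic cells (-1.71 ± 0.41, adjusted p = 0.0127), fell. Macrophage genes past the threshold were 3 without Tert+ no RT replicate 2 or 3 or Tert- no RT replicate 3, and 8 in the summed comparison. The summed macrophage share, a measure added after seeing the data, was 0.0804 to 0.492% without RT and 0.0795 to 0.313% after RT (exact permutation, adjusted p = 0.0195). With means over the Tert+ and Tert- libraries of a number, the permutation p was 0.0571. Of 10 monocyte and neutrophil genes 1 fell and 1 rose (10% each, median -1.28). The list median was 0.23 in Tert+ and -2.51 in Tert-, so the pooled value does not describe Tert+. The summed share of this list was 0.0213 to 0.111% without RT and 0.0236 to 0.0770% after RT (exact permutation, adjusted p = 0.898). Ccr2, a receptor of monocytes, fell (-2.54 ± 0.54, adjusted p = 0.00605), and Plac8 rose (0.68 ± 0.17, adjusted p = 0.0163, 0.0647 in the summed comparison). Without Tert+ no RT replicate 1 or 3, 2 fell. Inflammatory cytokines lay near the background, with 1 of 24 higher, Tgfb1 (0.93 ± 0.16, adjusted p = 0.00143), and 1 lower, Ccl5 (adjusted p = 0.0488). Ccl5 did not pass without any 1 of 12 libraries, all but Tert- RT replicate 1 and Tert+ RT replicate 4. The median of the cytokine list was -0.30, with 0.39 in Tert+ and -0.78 in Tert-.

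Heat shock chaperones rose most by share. Of 17 tested, 12 rose (70.6%) and 0 fell, with a median of 0.55, and the summed comparison called 5. Hspa1b, an inducible Hsp70, stood at 31.4, 27.4 and 9.41 CPM in Tert+ and 63.0, 24.0 and 7.56 CPM in Tert- without RT. In the RT libraries it stood at 68.7, 71.9, 191 and 172 CPM in Tert+ and 72.9, 153, 413 and 473 CPM in Tert- (2.80 ± 0.58, adjusted p = 0.00818). No library overlapped, with Tert- no RT replicate 1 at 63.0 CPM nearest to the RT libraries, and the summed comparison gave an adjusted p of 0.0982. Its near identical neighbour Hspa1a, which can share its reads, went from 49.0 to 754 CPM to 837 to 2909.7 CPM (2.77 ± 0.54, adjusted p = 0.00640, 0.123 in the summed comparison). Hspe1, the mitochondrial co-chaperone, stood at 74.0 to 88.1 CPM and 125 to 208 CPM without overlap (0.84 ± 0.12, adjusted p = 0.000521). Hsp90aa1 (1.26 ± 0.19, adjusted p = 0.00101), Dnajb1 (1.37 ± 0.22, adjusted p = 0.00111) and Hsph1 (0.95 ± 0.18, adjusted p = 0.00280) rose. Heat shock genes also answer to warm enzymatic dissociation, as immediate early genes do. In that list 2 of 28 rose, Jun (0.93 ± 0.21, adjusted p = 0.00854, 0.0922 in the summed comparison) and Ier5, and 3 fell, Fos (-0.73 ± 0.18, adjusted p = 0.0160, 0.0541 without Tert+ no RT replicate 2), Jund and Klf2. With Tert- no RT replicate 1 left out 6 rose, with Tert+ no RT replicate 2 left out 0 fell, and 1 fell when Tert- no RT replicate 3 was left out. Ier5 lost its call without any 1 of Tert+ no RT replicates 1 and 2, Tert- no RT replicate 2, Tert+ RT replicates 2 and 3 and Tert- RT replicates 3 and 4. The part of tissue handling was not tested. In the Bcl2 family 1 of 14 rose, Bbc3, and 2 fell, Bid and Bad, and 0 of these passed in the summed comparison.

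Epithelial identity genes gave no calls in the main fit, while some acinar genes fell, with calls that depended on single libraries. By edgeR's test 0 of 20 epithelial identity genes passed (median -0.04, with -0.13 in Tert+ and 0.30 in Tert-), with 1 at an unadjusted p under 0.05. Krt18, a keratin of glandular epithelium, stood at 50.5 to 199 CPM and 35.5 to 145 CPM (-0.07 ± 0.33, adjusted p = 0.925), and its fitted change was 0.33 without Tert+ no RT replicate 1. By the same test 0 of 20 genes of the granular convoluted tubule, the duct segment that makes kallikreins and growth factors, passed (1 at an unadjusted p under 0.05), and 0 of 14 myoepithelial, stromal and endothelial genes (1). The median of the tubule list was -0.35, with 0.57 in Tert+ and -1.21 in Tert-, so the pooled value does not describe Tert+. Klk1, a kallikrein, stood at 1544 to 13122.5 CPM and 544 to 8182 CPM (-0.73 ± 0.61, adjusted p = 0.487). Of 18 acinar genes, which make the saliva, 5 fell (27.8%, median -1.28), with 8 at an unadjusted p under 0.05. Of this list 0 passed with limma voom and an estimated correlation between libraries of a number or without Tert+ no RT replicate 1 and Tert+ RT replicate 4. Mucl2, a mucin-like protein, had 81797 CPM in Tert+ no RT replicate 1, 920.0 to 15684 CPM in the other 5 libraries without RT and 288 to 1997 CPM after RT (-4.46 ± 1.00, adjusted p = 0.0132). Without that library the change was -2.76 (adjusted p = 0.0797), and Pip (-2.19, adjusted p = 0.0752) and Car6 (-2.23, adjusted p = 0.108) lost their calls likewise. Of the list 1 gene then passed, Kcnn4, a potassium channel (-1.16, adjusted p = 0.0434), 3 passed without Tert- no RT replicate 3, and 1 in the summed comparison.

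The RT effect was then set side by side in the 2 populations. In Tert+, 176 genes were higher and 139 lower (1.98% in either direction), and in Tert-, 130 and 128 (1.62%). The 116 genes past the threshold in both, 36.8% of those in Tert+ and 45.0% of those in Tert-, all had the same sign. These counts rest on few libraries: without Tert+ no RT replicate 2 or 3, Tert+ gave 11 or 12 higher and 11 or 9 lower genes, and without Tert- no RT replicate 2 or 3, Tert- gave 7 higher and 12 or 11 lower. Without Tert- RT replicate 3, Tert- gave 9 and 12, and without Tert- no RT replicate 1, 519 and 382. Tert+ fell to 45 to 54 higher genes without Tert+ RT replicate 2 or 3 and rose to 303 without Tert- no RT replicate 1. No gene passed for the difference of the effect by edgeR (578 had an unadjusted p under 0.05) or by limma voom (621), and 12 passed by DESeq2. A gene called in 1 population only is therefore not shown to differ between them. The fitted changes of Mcm5 were -1.77 in Tert+ and -1.12 in Tert-, and those of Mef2b -3.89 and -2.98. Cdkn1b (1.44 and 1.74), Phlda3 (2.52 and 3.14) and Hspa1b (2.47 and 3.13) rose in the fit of both. The smallest p-values for a difference were those of Sema3b, Ms4a7 and Pls3, which did not pass (adjusted p = 1.00 for each). Ms4a7, a gene of macrophages, stood at 0.379 to 2.28 CPM before and 5.33 to 9.85 CPM after RT in Tert+, and at 55.1 to 71.6 CPM before and 10.3 to 59.3 CPM after RT in Tert-.

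**Figure D5:**
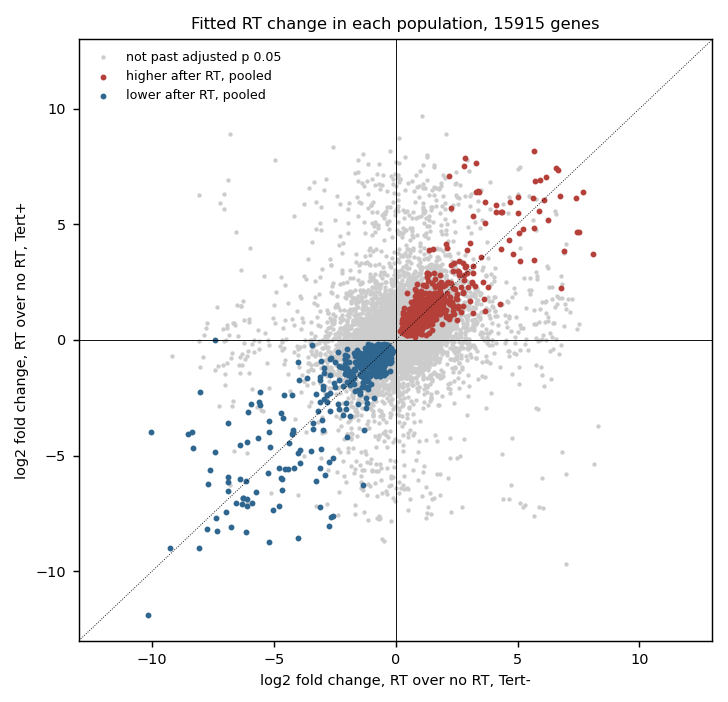
Fitted log2 fold change of RT over no RT in Tert+ (vertical) against Tert- (horizontal) for each of 15915 genes, with genes past the pooled threshold coloured by direction and a dotted line of equal change. The coloured genes lie in the upper right and lower left quadrants, where the pooled contrast selects them. Genes far from the centre are mostly genes with few counts in a group.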

How the data were processed

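RNA from sorted cells (1 ng per library) was sequenced in 14 libraries. The deposited table holds raw read counts for 54532 genes, per the file headers. Reads were aligned with HISAT2 to mm10, per the submitters' processing notes, and the counting program, its annotation and its use of strand are not given in the sources used here. Genes with low counts were removed with filterByExpr over the 4 groups, leaving 15915. Libraries were scaled by TMM and tested with edgeR 4.0.16 (R 4.3.3) by the quasi-likelihood test, with RT and population as additive terms, at an adjusted p of 0.05. The same fit with 4 groups gave the effect in each population and the difference. Scripts were tested on simulated data. The members and the 35 lists were chosen with earlier results of these data known.

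Named genes were Tert, up to 12 each of those that rose or fell furthest, past the threshold, without overlap and with mean log2 CPM no lower than 3, and up to 4 per list by smallest p. Further list members were named after their values were seen. Tert+ and Tert- libraries of the same RT state and replicate number carry consecutive library numbers. Same-numbered libraries were checked for pairing by the correlation of their deviations from group means. It was -0.0802 to 0.0599 between RT states (median -0.0070, and 0.0054 for different numbers). Between populations it was -0.0491 to 0.119 (median 0.0304, and -0.0272 for different numbers), and limma estimated a correlation of 0.106. The main fit did not use the numbers as pairs, and this check cannot exclude shared mice. Library shares were tested by exact permutation within population (1225 regroupings, two-sided). Promoter sequences are from RefSeq, GRCm38.p6, matched by symbol for 10619 of 15914 symbols tested. Alternatives were other scalings, filters, tests (limma 3.58.1, DESeq2 1.42.0), units of replication and leaving out each library. Protein coding genes alone, leaving out Tert+ no RT replicate 1 and Tert+ RT replicate 4 together and 11 of the library shares were added after seeing the data. Some genes are not reported here by name.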

Additional observations from a re-analysis of the deposited data

Results flagged for a closer look

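Of 312 groups of 4 RT libraries examined, 17 had a highest or lowest library whose gap to the nearest other, divided by the group's range, exceeded Dixon's 95% critical value of 0.829. Chance alone flags about 5 in 100 such groups. In Tert+ RT replicate 1, Xrcc6 stood at 52.4 CPM against 34.7 to 36.3 in the other 3 libraries. In Tert+ RT replicate 2, Hspe1 stood at 139 CPM against 125 to 128, Mcm10 at 0.970 CPM against 0 and Nuggc at 0.162 CPM against 0. In Tert+ RT replicate 3, Dclre1c stood at 28.0 CPM against 61.8 to 66.0 and Ebf1 at 629 CPM against 512 to 523. In Tert+ RT replicate 4, Bbc3 stood at 16.3 CPM against 5.17 to 6.82.

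In Tert- RT replicate 1, Lyz2 stood at 256 CPM against 99.0 to 107. In Tert- RT replicate 2, Klk1 stood at 8182 CPM against 1227 to 1938, and the granular tubule share at 1.28% against 0.217 to 0.269%. The same library had Idh3a at 99.2 CPM against 83.4 to 84.7, Sod2 at 87.2 CPM against 66.4 to 68.7 and Cdkn3 at 0.130 CPM against 0. In Tert- RT replicate 3, Snhg4 stood at 33.2 CPM against 27.9 to 28.8 and Ighg2c at 1.32 CPM against 0. In Tert- RT replicate 4, Ccng1 stood at 130 CPM against 165 to 168 and mt-Nd4 at 515 CPM against 1080 to 1131.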

How the results depend on the processing

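Summing the Tert+ and Tert- libraries of a number gave 378 higher and 335 lower genes, DESeq2 1589 higher, and protein coding genes alone 777 lower. In Tert+, a CPM of at least 5 gave 274 higher, limma voom 232 lower and DESeq2 627 higher and 430 lower. In Tert-, upper quartile scaling gave 209 higher, a CPM of at least 5 237 higher, limma voom 206 higher, DESeq2 630 higher and 568 lower, and leaving out both Tert+ no RT replicate 1 and Tert+ RT replicate 4 (the left-out pair below) 232 higher and 261 lower. For the difference between populations DESeq2 gave 9 higher and 3 lower and the pair left out gave 2 higher. Leaving out 1 library gave 661 to 1249 higher and 665 to 1245 lower genes in the pooled comparison, 11 to 303 and 9 to 204 in Tert+, 7 to 519 and 11 to 382 in Tert-, and 0 to 1 and 0 for the difference. The causes were not tested. With the replicate number as a block, the pooled comparison gave 901 higher and 943 lower. Then 8 mitosis genes fell in place of 15, 7 nuclear respiratory genes in place of 12, 3 macrophage genes in place of 5, 1 acinar gene in place of 5, 1 tricarboxylic acid cycle gene in place of 4 and 9 T and natural killer cell genes in place of 4, and 20 interferon genes rose in place of 12.

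Named genes and library shares whose sign changed had adjusted p over the threshold. Over all genes in the pooled comparison, 1 gene past the threshold with the replicate block had the opposite sign to the main fit. The same held for 1 gene with voom and 1 with voom and a random effect. Krt18 (-0.07) was 0.016 with the replicate block, 0.085 summed, 0.051 with voom, 0.062 with voom and a random effect, 0.40 with the pair left out and 0.0049 over protein coding genes. Klk1b26 (-0.18) was 0.054 with the replicate block. Tert (0.58) was -0.29 with voom, -0.31 with the random effect and -0.027 with the pair left out, where Cd24a (-0.08) was 0.025. Leaving out 1 library gave -0.22 to 0.33 for Krt18, -0.66 to 0.27 for Klk1b26, -0.054 to 1.15 for Tert and -0.14 to 0.019 for Cd24a. It gave differences of -0.00287 to 0.0122 percentage points for the epithelial share, -0.0106 to 0.0118 for the monocyte and neutrophil share, -0.0013 to 0.00266 for the myoepithelial share and -180.6 to 315 for genes counted.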
